A study of Mus musculus with 18 samples.

Results

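RNA sequencing libraries of mouse tongue that carried mutant PIK3CA together with mutant p53 were compared with libraries that carried mutant p53 alone. The double mutant group, E20/p53, holds 6 libraries labelled LSL-PIK3CAH1047R, LSL-p53+/R172H and K14-Cre. The p53 group holds 3 libraries labelled as heterozygous LSL-p53+/R172H. These 9 of the 18 libraries of the series were chosen by their labels, and the fit also held 6 libraries of tongue with the PIK3CA allele alone (E20) and 3 of wild type esophagus (WT). Every library is described as squamous epithelium. LSL denotes a stop element between loxP sites, so that an allele is expressed once Cre has cut the element out, and K14-Cre drives Cre from the keratin 14 promoter of basal squamous cells. The labels name Cre in 6 of 6 E20/p53 libraries and in 0 of 3 p53 libraries, so the added PIK3CA allele and the labelled Cre cannot be told apart. Both groups share the p53 allele R172H. The series title speaks of tumours started with the carcinogen 4NQO, but the labels do not say which libraries came from treated animals or from a tumour, and they give no age. The labels do not tie libraries to animals or cultures. The p-values therefore reflect only the spread within groups over all 18 libraries of the fit, which could be technical spread.

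PIK3CA encodes the catalytic subunit of PI3-kinase, which makes a membrane lipid that recruits AKT, and AKT in turn activates mTORC1 and holds back the FOXO transcription factors. The H1047R change lies in the kinase domain and raises the activity of the enzyme. R172H changes the DNA-binding domain of p53, the factor that drives genes of cell cycle arrest and apoptosis such as Cdkn1a. PI3-kinase signalling is also known to raise sterol and fatty acid synthesis through the SREBP factors.

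The 6 double mutant libraries fell into 2 blocks, libraries 1 to 3 and libraries 4 to 6. Across genes, which are not independent replicates, Pearson's r between libraries of different blocks was 0.859 to 0.862. It was 0.836 to 0.840 for libraries 1 to 3 with p53 and 0.945 to 0.947 for libraries 4 to 6 with p53. The labels do not define these blocks, no test compares one with the other, and both are set against the same 3 p53 libraries. Libraries held 14592044 to 18176060 reads. The deposited table gives log2 values from which levels are expressed here as CPM, reads scaled to a common library total, and differences are in log2 units, E20/p53 minus p53. "Higher" and "lower" refer to E20/p53. The library p53.3 held 34841 CPM of the ribosomal RNA precursor Rn45s against 960 to 1858 CPM in the other p53 libraries and 851 to 4984 CPM in E20/p53.

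The label of squamous epithelium was checked against defining markers. The basal keratin Krt14 stood at 0.695 ± 0.142 CPM in p53 (SD, n = 3), 483 ± 10.6 in libraries 1 to 3 and 0.199 ± 0.0586 in libraries 4 to 6. Its partner Krt5 stood at 127 CPM in libraries 1 to 3, with 3 reads in all of p53 and 0 in libraries 4 to 6. The epithelial adhesion gene Cdh1 stood at 0.285, 1.96 and 0.14 CPM, in the same order. The summed level of the 10 fibroblast markers was 8486 to 9249 CPM in p53, 111 to 115 CPM in libraries 1 to 3 and 19713 to 21693 CPM in libraries 4 to 6. The collagens Col1a1, Col1a2 and Col3a1 make up most of that sum. Of the 8 fibroblast markers tested, 5 (Dcn, Pdgfra, Thy1, Dpt and Mfap5) fell in both blocks and 0 rose. That is 62.5% lower, against 12.3% lower and 11.5% higher of all genes tested. Thy1 averaged under 0.635 CPM, the minimum of the filter on genes tested, in E20, WT and both blocks. Little other than a fall could therefore be seen for it. The median difference of the markers was -6.56 in libraries 1 to 3 and -2.27 in libraries 4 to 6. The p53 libraries and libraries 4 to 6 held few reads of Krt5 and Krt14 and many of these 3 collagens, and these genes go against the label. The basal keratinocyte markers were not absent as a list. The 9 of them, Krt5 and Krt14 included, summed to 307 to 413 CPM in p53. The sums were 1672 to 1716 CPM in libraries 1 to 3 and 355 to 435 CPM in libraries 4 to 6. Of the 9, 2 rose in both blocks and 0 fell, which is 22.2% higher. The 12 skeletal muscle markers summed to 808 to 838 CPM in p53, 6.07 to 6.501 CPM in libraries 1 to 3 and 147 to 157 CPM in libraries 4 to 6. The 8 endothelial markers summed to 4.08 to 5.80, 2.42 to 3.19 and 3.16 to 3.95 CPM, and the 9 leukocyte markers to 7.03 to 8.26, 19.2 to 23.1 and 24.8 to 26.8 CPM. Of the 4 leukocyte markers tested 0 passed, and their sum was mostly Cd68 in libraries 1 to 3 (20.9 CPM) and Cd74 in libraries 4 to 6 (19.6 CPM). In bulk RNA, fewer cells of a type and less RNA per cell cannot be told apart, and the part of these marker levels in the results below was not tested.

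Of 15235 genes tested, 1960 were higher and 1964 lower in the double mutant at an adjusted p under 0.05 (limma, Benjamini-Hochberg), which is 12.9% in each direction. A gene was taken to move the same way in both blocks when it was called and all 6 double mutant libraries lay on one side of all 3 p53 libraries. 1747 genes met this upward, 11.5% of those tested, and 1873 downward, 12.3%. Of these, 279 higher and 734 lower genes differed at least 2-fold in each block. Another 1223 genes, 8.03%, lay above p53 in libraries 1 to 3 and below it in libraries 4 to 6, and 1741, 11.4%, did the reverse. The median difference over all tested genes was 0.02, with 0.01 in libraries 1 to 3 and 0.04 in libraries 4 to 6.

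**Figure D1:**
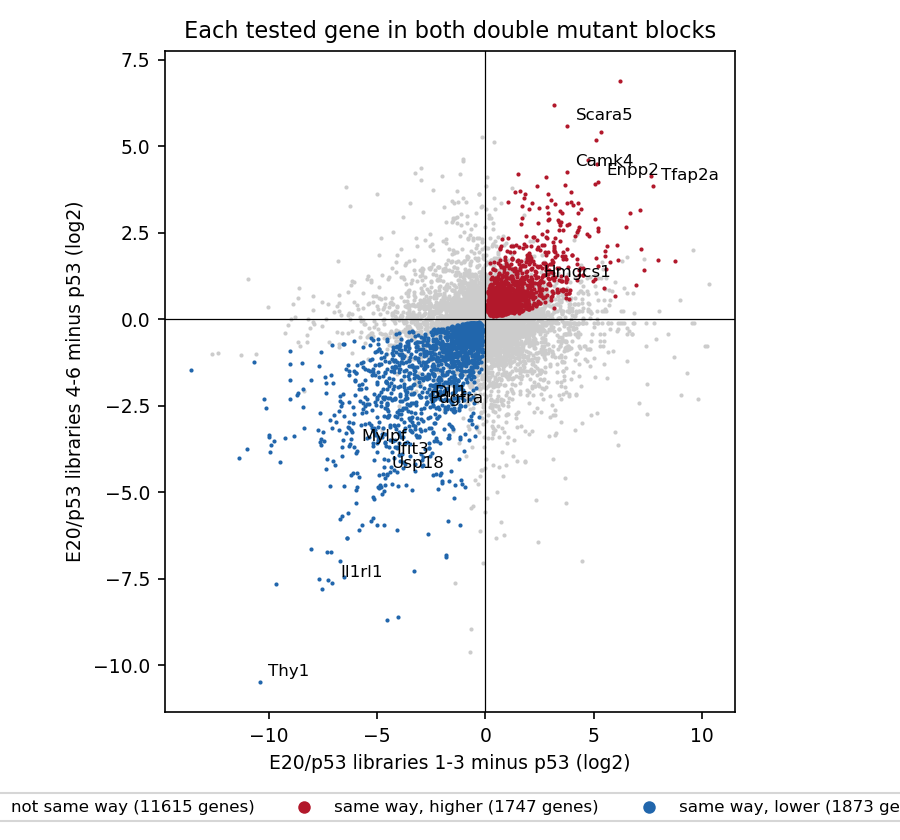
Each point is 1 of the 15235 tested genes, placed by its log2 difference from p53 in double mutant libraries 1 to 3 (horizontal) and 4 to 6 (vertical). Red marks the 1747 genes higher in both blocks, blue the 1873 genes lower in both, and grey the rest, many of which lie in the upper left and lower right where the blocks differ from p53 in opposite directions.

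The counts rest on few libraries. Without p53 library 1 the calls were 1111 higher and 1301 lower, without p53 library 2 they were 1117 and 1214, and without p53 library 3 they were 1176 and 1285. When each block, like the p53 group, was averaged to 1 value, limma called 0 genes in either direction, with 422 at an unadjusted p under 0.05. That holds for every gene named below. The calls of 101 of the 141 genes that the naming rule gives as moved held under every other setting that tested them. A stricter filter on low values tested only 128 of the 141, and Thy1, Ptgis and Lhx8 were among those it left out.

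The genes that rose by the most in both blocks included secreted and signalling proteins. Enpp2, on chromosome 15 (mm10 chr15:54838901-54952892), encodes autotaxin, the enzyme that makes the signalling lipid lysophosphatidic acid. Its levels were 4.49, 3.13 and 3.53 CPM in the p53 libraries, 127, 150 and 133 CPM in double mutant libraries 1 to 3, and 53.24, 61.1 and 61.7 CPM in libraries 4 to 6. Each double mutant library stood far above each p53 library, and the difference was 4.58 (SE 0.41, limma adjusted p = 8.68e-07).

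Scara5, a scavenger receptor for ferritin, was higher in libraries 4 to 6 than in 1 to 3. It read 1.34, 1.76 and 1.07 CPM in p53, 19.4, 20.9 and 18.5 CPM in libraries 1 to 3, and 63.5, 67.0 and 73.5 CPM in libraries 4 to 6. The difference was 4.68 (SE 0.61, limma adjusted p = 4.23e-05). Camk4, a calcium and calmodulin dependent kinase, read 0.870, 0.977 and 0.756 CPM in p53 and between 11.7 and 19.3 CPM over the 6 double mutant libraries, with block differences of 3.75 and 4.25 and an adjusted p of 6.87e-07 in limma.

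The transcription factors Isl1 and Tfap2a stood in the same group. Isl1 belongs to the list of oral and jaw patterning factors, of which 11 fell and 6 rose. Lhx8 of that list was among the 12 largest falls. Isl1 rose from 0.652 ± 0.242 CPM (SD, n = 3) to 22.9 ± 1.37 in libraries 1 to 3 and 10.2 ± 0.983 in libraries 4 to 6. Tfap2a, a factor of surface ectoderm and neural crest, rose by 7.74 in the first block and 3.84 in the second, from 0.347 CPM to 86.9 and 5.77 CPM, so its size differed widely between blocks. Ndnf, a secreted neurotrophic factor, read 1.10 CPM in p53, 18.01 in libraries 1 to 3 and 12.2 in libraries 4 to 6. The endothelial and macrophage scavenger receptor Stab1 read 1.95, 14.3 and 18.5 CPM, and Chrdl1, an antagonist of BMP ligands, read 1.32, 18.9 and 9.15 CPM. Stmn2, Gprin3, Otulinl and Sybu completed the 12 genes with the largest rise in the weaker block.

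Of the 12 genes that fell by the most, all but Il1rl1 stood below 0.3 CPM in each double mutant library. Lhx8, Iqsec3, Spock1, Col26a1 and Adcyap1r1 also averaged under 0.635 CPM, the minimum of the filter, in E20 and in WT. These genes passed the filter only through the p53 libraries, so a fall was the only change they could show. Thy1 and Ptgis averaged under that minimum in E20 and in WT as well, so little other than a fall could be seen for them. Il1rl1 (mm10 chr1:40429570-40465415), the receptor for interleukin 33, read 1109, 1145 and 1131 CPM in p53. It read 8.58, 8.52 and 7.64 CPM in libraries 1 to 3 and 6.55, 6.53 and 4.28 CPM in libraries 4 to 6. The difference was -7.35 (SE 0.39, limma adjusted p = 3.79e-09), and the block differences of -7.09 and -7.62 lay close together. Its ligand Il33 read 53.41 ± 3.72 CPM in p53 (SD, n = 3), 19.7 ± 0.654 in libraries 1 to 3 and 13.95 ± 0.462 in libraries 4 to 6, so receptor and ligand were both lower.

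Thy1, a surface protein of fibroblasts and other mesenchymal cells, read 123, 137 and 116 CPM in p53, and the 6 double mutant libraries together held 5 reads of it. Ptgis, prostacyclin synthase, read 47.9, 49.2 and 45.9 CPM in p53, with 0 reads in libraries 1 to 3 and 10 in libraries 4 to 6. Thy1 was 1 of the 5 fibroblast markers that fell in both blocks. Lhx8 and Tbx4, developmental transcription factors, Iqsec3 and Gria3, synaptic genes, the extracellular proteins Spock1 and Col26a1, Rps4l, which GENCODE M21 lists as a transcribed processed pseudogene, the neuropeptide receptor Adcyap1r1 and the interferon-stimulated Oas2 were the others. Rps4l is close in sequence to other ribosomal protein genes, so its counting is uncertain.

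**Figure D2:**
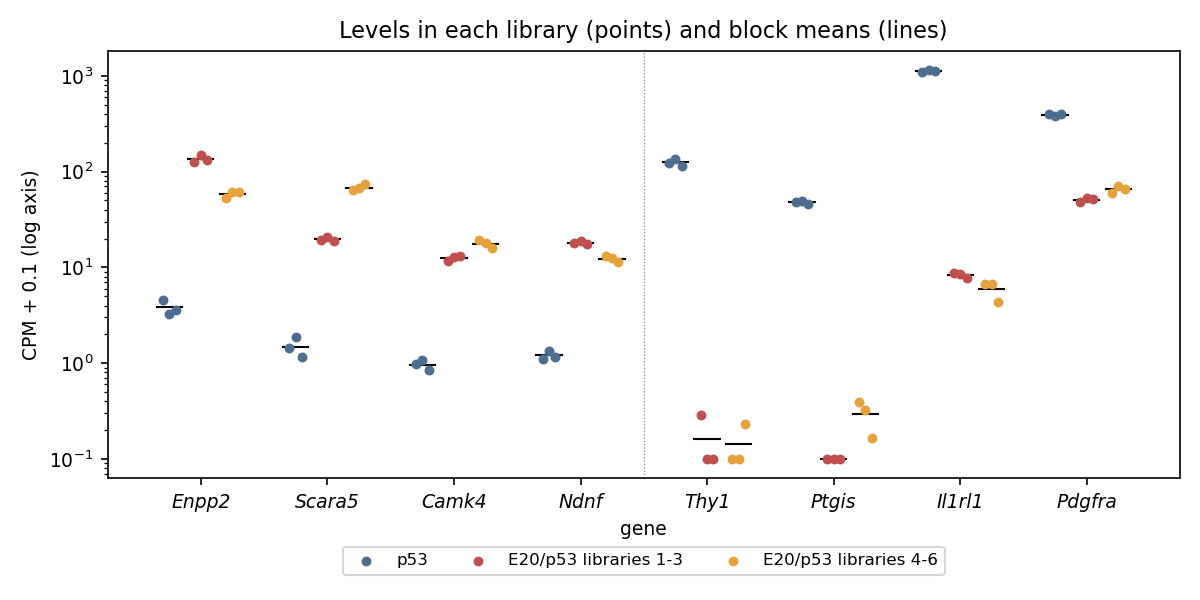
CPM plus 0.1 on a log axis for 4 genes that were higher (left of the dotted line) and 4 that were lower (right) in E20/p53, with 1 point per library and a line at the mean of each 3 libraries. In none of the 8 genes do the 6 double mutant libraries overlap the 3 p53 libraries, and Scara5 and Enpp2 differ in level between the blocks.

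Interferon-stimulated genes fell together. These genes encode antiviral effectors and are switched on by a complex of transcription factors, among them IRF9, that binds a DNA element called ISRE. Of the 23 tested genes of the list, 21 fell and moved the same way in both blocks, against 12.3% of all genes, and 0 rose. The median difference of the list was -2.999, with -2.78 in libraries 1 to 3 and -3.16 in libraries 4 to 6, against 0.02 over all genes. Leaving out any 1 library left 19 to 22 genes called. Mx1 at an adjusted p of 0.0617 and Oas3 at 0.118 (limma) were the genes that did not pass.

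Usp18 (mm10 chr6:121245906-121270917), which removes ISG15 from proteins and dampens interferon signalling, read 32.9, 33.0 and 37.3 CPM in p53. It read 0.864, 1.46 and 1.52 CPM in libraries 1 to 3 and 1.25, 1.88 and 1.38 CPM in libraries 4 to 6. The double mutant libraries all lay below 2 CPM, far under the p53 libraries, and the difference was -4.60 (SE 0.44, limma adjusted p = 1.99e-06). Oas1a and Oas1g, sensors of double-stranded RNA, fell by 5.48 and 5.47, but they are near-identical copies of each other and reads could be split between them. Ifit3, named after its values were seen because its promoter is shown, fell from 35.3 ± 5.31 CPM (SD, n = 3) to 1.53 ± 0.259 and 2.08 ± 0.540 CPM.

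Of the 21 genes, 17 had promoter windows of 300 bases (250 before to 50 after the start site) in the RefSeq table for GRCm38.p6. Mx2, Oas2 and Usp18 were among those with none. The ISRE letters, GAAA then 2 bases of any kind then GAAA, on either strand, stood in 10 of their 19 windows, 52.6%, against 3.44% of all 32851 windows. The list holds genes known to be switched on through this element, so the share describes the list. Listed genes that did not fall were not compared, and any part of the element in the fall was not tested. Among genes with a match and at least 5 CPM in p53, Oas1g, Oas1a and Ifit3 had the largest fall in the weaker block. Oas1a, the near-identical copy, is left out, and the windows of Oas1g and Ifit3 are shown. Capitals mark the matches, and in Oas1g 2 of them overlap. The first lies on the minus strand at chr5:120887564-120887863 and the second on the plus strand at chr19:34583279-34583578.
Oas1g: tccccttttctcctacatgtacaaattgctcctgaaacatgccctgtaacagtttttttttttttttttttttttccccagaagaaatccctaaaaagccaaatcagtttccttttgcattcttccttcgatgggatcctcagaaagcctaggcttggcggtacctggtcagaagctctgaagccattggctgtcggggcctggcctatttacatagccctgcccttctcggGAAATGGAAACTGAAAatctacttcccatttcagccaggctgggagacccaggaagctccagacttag
Ifit3: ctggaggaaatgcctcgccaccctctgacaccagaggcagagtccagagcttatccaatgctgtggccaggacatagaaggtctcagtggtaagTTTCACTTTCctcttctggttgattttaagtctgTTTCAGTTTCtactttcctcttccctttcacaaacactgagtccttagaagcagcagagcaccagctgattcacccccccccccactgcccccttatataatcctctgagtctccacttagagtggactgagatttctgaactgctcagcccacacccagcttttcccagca

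**Figure D3:**
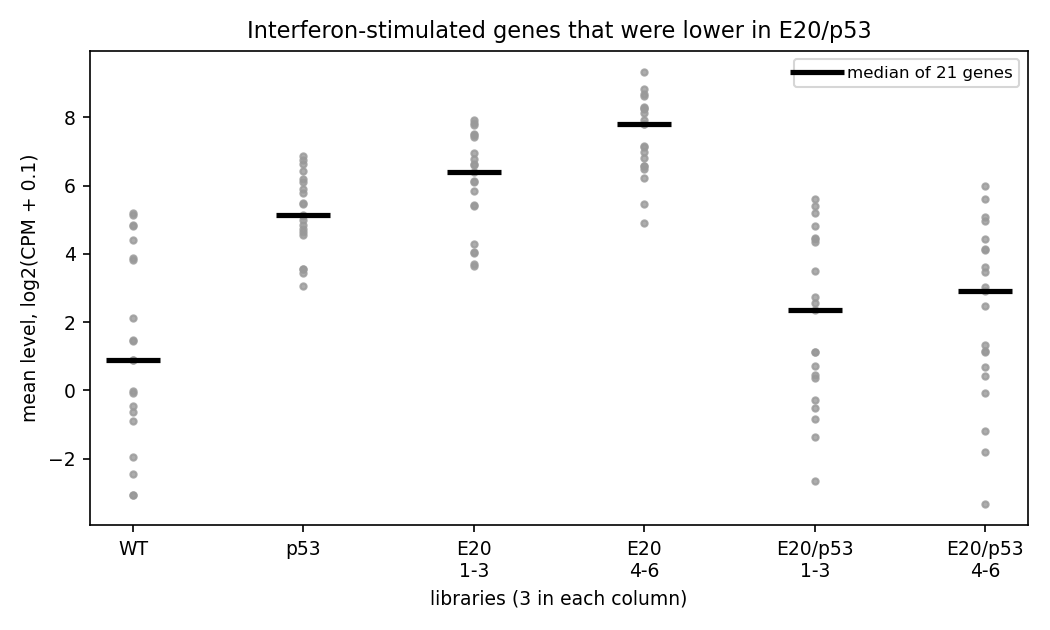
Mean level, as log2 of CPM plus 0.1, of the 21 interferon-stimulated genes that were lower in E20/p53, in each set of 3 libraries of the series (1 grey point per gene, black bar at the median). The medians were 5.14 in p53, 2.37 in double mutant libraries 1 to 3 and 2.91 in libraries 4 to 6, and E20 libraries stood at 6.41 and 7.81 and WT at 0.91, shown as a description with no test.

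Other immune genes fell by less. B2m, the light chain of MHC class I, read 918 ± 51.5 CPM in p53 (SD, n = 3), 457 ± 14.4 in libraries 1 to 3 and 437 ± 18.8 in libraries 4 to 6 (limma adjusted p = 2.98e-06). In the list of 20 chemokines and cytokines 6 fell and 2 rose, which is 30.0% and 10% against 12.3% and 11.5% of all genes. The cytokine Il6 read 41.7 CPM in p53, 9.59 in libraries 1 to 3 and 9.92 in libraries 4 to 6, and Ccl7, which attracts monocytes, read 209, 28.9 and 78.0 CPM. Cxcl16 rose from 5.04 to 11.1 and 11.5 CPM. Of the leukocyte markers, Cd3e and Adgre1 held 0 reads in all 9 libraries.

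Genes of skeletal muscle fell with the muscle markers given above. Those markers share genes with the contractile and fate lists, among them Mylpf, Ryr1, Myod1 and Myog, so the lists are not independent. Of 28 tested genes for the contractile apparatus and the neuromuscular synapse, 26 fell in both blocks and 0 rose, against 12.3% of all genes lower. The list median was -4.89, with -6.57 in libraries 1 to 3 and -2.84 in libraries 4 to 6. Leaving out any 1 library left 22 to 28 genes called. The intermediate filament gene Des at an adjusted p of 0.0563 and the myosin gene Myh2 at 0.0861 (limma) did not pass.

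Mylpf, a regulatory light chain of fast muscle myosin (mm10 chr7:127208890-127214298), read 157, 168 and 144 CPM in p53, 2.28, 2.63 and 1.85 CPM in libraries 1 to 3, and 10.5, 12.5 and 13.2 CPM in libraries 4 to 6. The groups did not overlap and libraries 1 to 3 were lowest (difference -4.89, SE 0.57, limma adjusted p = 1.45e-05). The ryanodine receptor Ryr1, the calcium release channel of muscle, read 44.2, 2.22 and 3.90 CPM, with the 2 blocks closer together. Chrng, the fetal subunit of the muscle acetylcholine receptor, read 49.95, 51.8 and 50.04 CPM in p53, 0 reads in libraries 1 to 3 and 4.17, 5.17 and 3.82 CPM in libraries 4 to 6.

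Of 20 tested regulators of muscle fate, 9 fell and 1 rose, which is 45.0% and 5.00% against 12.3% and 11.5% of all genes. The master factors Myod1 and Myog held 153 ± 3.84 and 119 ± 6.42 CPM in p53 (SD, n = 3) and 9.46 ± 0.785 and 8.87 ± 0.815 CPM in libraries 4 to 6, with 0 reads in libraries 1 to 3. Pax7, which marks muscle stem cells, read 43.6, 0.368 and 7.64 CPM. The muscle E-box letters CAGCTG, which read the same on both strands, stood in 10 of 22 promoter windows of 21 of the 26 contractile and synapse genes, 45.5%, against 16.3% of all windows. That share describes the chosen list, and any part of the E-box in the fall was not tested. Actn3, Chrnd, Neb, Tnni2 and Tnnt3 had no window. The windows of Mylpf (plus strand, chr7:127211358-127211657) and Chrng (plus strand, chr1:87205561-87205860) are shown as the genes with a match and the largest fall in the weaker block, with the E-boxes in capitals.
Mylpf: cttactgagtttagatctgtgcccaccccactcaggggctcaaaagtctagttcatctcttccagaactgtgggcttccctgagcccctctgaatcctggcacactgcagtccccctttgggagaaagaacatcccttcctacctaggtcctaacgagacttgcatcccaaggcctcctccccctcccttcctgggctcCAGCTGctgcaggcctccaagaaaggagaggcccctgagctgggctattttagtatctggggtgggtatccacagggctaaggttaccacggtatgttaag
Chrng: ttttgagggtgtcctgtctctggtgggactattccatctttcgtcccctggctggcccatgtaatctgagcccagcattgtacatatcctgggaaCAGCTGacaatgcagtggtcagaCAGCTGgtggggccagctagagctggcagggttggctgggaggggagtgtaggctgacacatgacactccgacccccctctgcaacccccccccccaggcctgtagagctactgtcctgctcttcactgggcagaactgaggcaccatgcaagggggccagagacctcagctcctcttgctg

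Some genes of sterol synthesis were higher. Of 22 tested genes for fatty acid and sterol synthesis 7 rose in both blocks, 0 fell and 15 did not pass, against 11.5% of all genes higher, and 5 to 10 were called with any 1 library left out. The list median was 0.74, with 1.22 in libraries 1 to 3 and 0.26 in libraries 4 to 6. They included Hmgcs1, Mvk, Fdps and Sqle of the sterol pathway and Scd1, which desaturates fatty acids. Fasn, fatty acid synthase, did not pass, at an adjusted p of 0.176 in limma.

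Hmgcs1, which makes HMG-CoA at the head of the sterol pathway (mm10 chr13:119690379-119708260), read 92.7, 90.3 and 107 CPM in p53. It read 435, 517 and 466 CPM in libraries 1 to 3 and 201, 191 and 204 CPM in libraries 4 to 6. All 6 double mutant libraries were above p53, the first block by more (difference 1.67, SE 0.37, limma adjusted p = 0.00357). Sqle, squalene epoxidase, read 129 ± 10.01 CPM in p53 (SD, n = 3), 307 ± 22.96 in libraries 1 to 3 and 233 ± 6.89 in libraries 4 to 6. Mvk, mevalonate kinase, rose by 1.41 in libraries 1 to 3 and 0.76 in libraries 4 to 6.

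The sterol regulatory element, searched as TCACNCCAC on both strands, stood in 1 of the 2 windows found for these 7 genes, against 1.24% of all windows. Fdps, Scd1 and Sqle were among those with no window. With only 2 windows, and no comparison with listed genes that did not rise, the match is a description. The match was in Hmgcs1, on the plus strand at chr13:119690101-119690400, and the element is in capitals.
Hmgcs1: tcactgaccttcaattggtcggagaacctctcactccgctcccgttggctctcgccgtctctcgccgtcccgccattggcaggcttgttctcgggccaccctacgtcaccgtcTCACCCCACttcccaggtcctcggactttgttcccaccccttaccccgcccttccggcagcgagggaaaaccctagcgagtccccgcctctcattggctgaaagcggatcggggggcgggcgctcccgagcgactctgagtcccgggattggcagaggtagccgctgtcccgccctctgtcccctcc

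In the PI3-kinase list itself the regulatory subunits Pik3r1 and Pik3r2 rose. Pik3r1 (mm10 chr13:101680563-101768217), the p85 alpha subunit that binds and stabilises the catalytic subunit, read 108, 98.3 and 111 CPM in p53, 177, 185 and 186 CPM in libraries 1 to 3, and 180, 177 and 172 CPM in libraries 4 to 6. The blocks lay together above p53 (difference 0.76, SE 0.09, limma adjusted p = 2.50e-05). Pik3r2, p85 beta, read 84.9 ± 4.25 CPM in p53 (SD, n = 3), 135 ± 7.96 in libraries 1 to 3 and 130 ± 7.495 in libraries 4 to 6. Over the 15 tested genes 3 rose and 1 fell, which is 20% and 6.67% against 11.5% and 12.3% of all genes. The third that rose was the lipid phosphatase Inpp5k, whose call was lost with the 9 compared libraries alone (limma adjusted p = 0.107). Without any 1 of the 3 p53 libraries 2 rose and 0 fell.

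The gene that fell was Pik3ca, the mouse locus, at 96.6, 96.5 and 102 CPM in p53 and 77.1 to 88.7 CPM over the double mutant libraries. Its difference was -0.24 (SE 0.09, limma adjusted p = 0.0489), and the call was lost without any 1 of 6 libraries, the 3 of p53 and E20/p53 libraries 1, 2 and 3. It was also lost with libraries 4 to 6 alone, at an adjusted p of 0.209. The deposited table does not separate transcripts of the PIK3CA allele from those of the mouse gene.

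Of 24 tested genes of the AKT and mTOR pathway 5 rose and 3 fell in both blocks, which is 20.8% and 12.5% against 11.5% and 12.3% of all genes, so the share that fell was near that of all genes. Inhibitors of mTORC1 were among those that rose. Sesn1 read 18.1 ± 3.14 CPM in p53 (SD, n = 3), 88.6 ± 5.23 in libraries 1 to 3 and 47.1 ± 2.54 in libraries 4 to 6. Ddit4 read 125, 324 and 204 CPM, and Tsc2, a brake on the RHEB switch of mTORC1, read 82.7, 113 and 122 CPM. Akt1 fell from 467 CPM to 402 and 308 CPM (limma adjusted p = 0.0141), and the kinase Sgk1 fell from 149 to 114 and 114 CPM. Calls in this list fell to 4 higher and 1 lower without p53 library 1, 5 and 1 without p53 library 2, and 6 and 2 without p53 library 3, against 6 and 4 with every library. Of 20 tested FOXO and insulin feedback genes 5 fell and 1 rose, which is 25% and 5.00% against 12.3% and 11.5% of all genes. Foxo4 fell from 46.8 ± 2.51 CPM to 23.02 ± 1.52 and 25.1 ± 0.700 CPM, and the receptor Igf1r from 114 to 97.8 and 90.4 CPM.

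Trp53 itself rose, and its targets included genes that fell and genes that rose. Trp53 read 87.7, 82.6 and 74.8 CPM in p53, 190, 168 and 179 CPM in libraries 1 to 3, and 309, 314 and 312 CPM in libraries 4 to 6, so all double mutant libraries stood above p53 and the second block highest (difference 1.53, SE 0.18, limma adjusted p = 1.88e-05). The counts do not separate the R172H allele from the wild type allele. Cdkn1a, the p21 inhibitor of cyclin-dependent kinases, read 223, 232 and 223 CPM in p53, 7.09, 6.39 and 7.25 CPM in libraries 1 to 3, and 57.5, 61.8 and 65.0 CPM in libraries 4 to 6. It fell by 3.45 (SE 0.77, limma adjusted p = 0.00402), with the first block lowest.

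Of 28 tested p53 targets 7 fell and 5 rose, which is 25% and 17.9% against 12.3% and 11.5% of all genes. The death receptor Eda2r fell from 14.6 CPM to 1.08 and 5.26 CPM, Ccng1 from 163 to 91.2 and 74.2 CPM, and Zmat3 from 96.9 to 45.7 and 55.3 CPM. The pro-apoptotic Bax fell from 152 to 72.2 and 112 CPM, while Bbc3, Rrm2b, Ddb2 and Tigar rose with Sesn1. Mdm2, which degrades p53, read 107, 57.4 and 68.7 CPM, and its call was lost without p53 library 2 (limma adjusted p = 0.0659). The counts were unstable: without p53 library 1, 2 or 3 there were 1, 1 and 2 higher calls and 6, 4 and 6 lower ones, without E20/p53 library 1, 2 or 3 there were 3, 2 and 2 higher, and without E20/p53 library 4, 5 or 6 there were 8 higher.

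**Figure D4:**
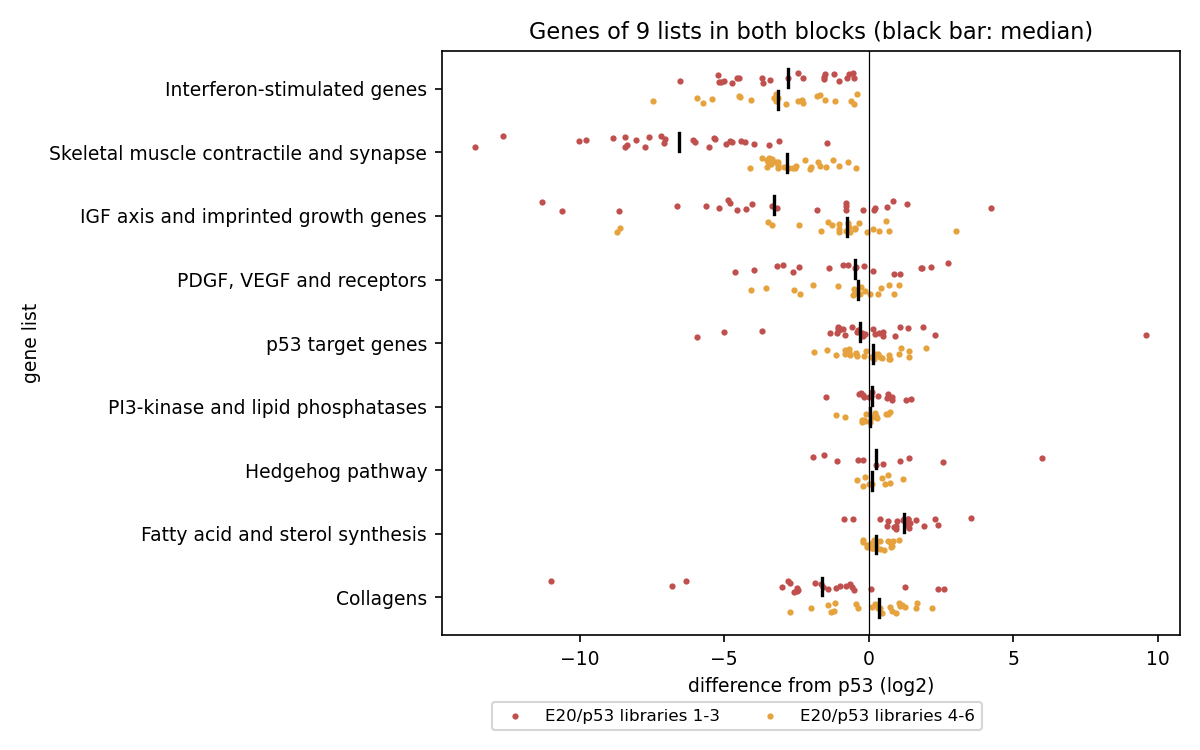
Log2 differences from p53 of the tested genes in 9 lists, for double mutant libraries 1 to 3 (red) and 4 to 6 (orange), with black bars at the medians. Interferon-stimulated genes lie left of 0 in both blocks (medians -2.78 and -3.16), fatty acid and sterol genes lie mostly to the right (1.22 and 0.26), and collagens have medians on opposite sides (-1.61 and 0.36).

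Of 24 tested mitosis genes 7 fell and 1 rose, which is 29.2% and 4.17% against 12.3% and 11.5% of all genes, with 7 and 0 without p53 library 1 and 4 and 0 without p53 library 2. Another 7, 29.2% against 19.5% of all genes on opposite sides, lay above p53 in libraries 1 to 3 and below it in libraries 4 to 6. The list medians were 0.03 in libraries 1 to 3 and -0.22 in libraries 4 to 6. The kinase Plk1 read 146 ± 4.80 CPM in p53 (SD, n = 3), 98.8 ± 6.73 in libraries 1 to 3 and 112 ± 3.68 in libraries 4 to 6, and the spindle motor Kif11 read 178, 142 and 143 CPM. Of 25 DNA replication genes 5 fell and 0 rose (20% lower), with 1 lower call without any 1 of the 3 p53 libraries and 3, 3 and 2 without E20/p53 library 1, 2 or 3. Of 23 G1 cyclins, CDKs and inhibitors 8 fell and 2 rose (34.8% and 8.70%), with 4 lower and 0 higher without any 1 p53 library and 5 and 1 without E20/p53 library 1. In that list the cyclin Ccnd3 fell from 331 to 55.3 and 173 CPM, and Cdkn1a fell as given above. Cdkn1c, an imprinted inhibitor of cell division, fell from 13.4 ± 0.809 CPM to 1.43 ± 0.180 and 1.30 ± 0.380 CPM (limma adjusted p = 4.94e-06). In its list of 24 IGF axis and imprinted growth genes 10 fell and 1 rose (41.7% and 4.17%), and 8 fell and 0 rose without any 1 of the 3 p53 libraries. The imprinted non-coding RNAs Meg3 and Rian read 23.7 and 25.1 CPM in p53, 1.46 and 1.00 CPM in libraries 1 to 3 and 0 reads in libraries 4 to 6.

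Several growth factor receptors, ligands and feedback genes were lower. Pdgfra, the PDGF receptor of mesenchymal cells (mm10 chr5:75152292-75198215), read 395, 384 and 402 CPM in p53, 47.6, 52.5 and 52.0 CPM in libraries 1 to 3, and 60.1, 69.9 and 65.5 CPM in libraries 4 to 6. Both blocks lay far below p53 (difference -2.78, SE 0.36, limma adjusted p = 4.67e-05), and Pdgfra was 1 of the 5 fibroblast markers that fell in both blocks. In the list of 19 PDGF, VEGF and receptor genes 7 fell, 36.8% against 12.3% of all genes, and 0 rose, and 6 to 8 fell with any 1 library left out. The ligands Hgf and Pdgfb fell from 18.1 and 8.56 CPM to 0.703 and 0.514 CPM in libraries 1 to 3 and 1.58 and 1.59 CPM in libraries 4 to 6.

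Errfi1, a feedback inhibitor of the EGF receptor, read 423, 438 and 413 CPM in p53 and between 92.4 and 119 CPM in the double mutant, with no overlap and a difference of -2.00 (SE 0.17, limma adjusted p = 5.52e-07). Dusp5, a phosphatase of ERK, fell from 11.6 to 1.56 and 4.26 CPM, and the AP-1 subunit Fosl1 from 21.5 to 8.16 and 10.8 CPM. In this list of 21 ERK feedback and immediate early genes 6 fell and 1 rose, which is 28.6% and 4.76% against 12.3% and 11.5% of all genes. Another 8, 38.1% against 19.5% of all genes on opposite sides, lay above p53 in libraries 1 to 3 and below it in libraries 4 to 6. The list medians were 0.60 in libraries 1 to 3 and -0.63 in libraries 4 to 6, so the list did not fall as a whole. There were 4, 3 and 3 lower calls without p53 library 1, 2 or 3, and 0 to 3 higher ones when any 1 library was left out. Pdpn, podoplanin, a surface glycoprotein studied in invasive squamous cancer, read 407 ± 24.8 CPM in p53 (SD, n = 3), 134 ± 8.14 in libraries 1 to 3 and 127 ± 4.38 in libraries 4 to 6.

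Of 17 tested Notch genes 5 fell and 2 rose, which is 29.4% and 11.8% against 12.3% and 11.5% of all genes, and the list median was -0.15. The lower calls were 3, 4 and 3 without p53 library 1, 2 or 3, with 0 or 1 higher when any 1 library was left out. The Notch ligand Dll1 read 39.8, 39.4 and 40.3 CPM in p53, 5.61, 6.22 and 5.90 CPM in libraries 1 to 3, and 7.32, 8.18 and 6.52 CPM in libraries 4 to 6. The 2 blocks lay together and well below p53 (difference -2.59, SE 0.17, limma adjusted p = 2.03e-08). Hes6, a relative of the Notch effector genes, fell from 57.8 to 26.6 and 31.0 CPM. Ptch1, the Hedgehog receptor and itself a target of the pathway, read 12.7, 10.9 and 15.8 CPM in p53, 28.8, 28.0 and 25.7 CPM in libraries 1 to 3, and 30.9, 30.3 and 28.0 CPM in libraries 4 to 6. It lay above p53 in every double mutant library (difference 1.14, SE 0.24, limma adjusted p = 0.00284). The transcription factor Gli3 rose from 80.7 to 113 and 118 CPM. Of 11 tested Hedgehog genes 4 rose (36.4%) and 0 fell, with a list median of 0.05, but 2 rose without any 1 of the 3 p53 libraries.

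Of 28 tested oral and jaw patterning factors 11 fell and 6 rose, which is 39.3% and 21.4% against 12.3% and 11.5% of all genes. Osr1 fell from 32.8 ± 4.16 CPM (SD, n = 3) to 2.88 ± 0.306 and 8.43 ± 0.453 CPM. Without p53 library 3 the list had 7 lower and 4 higher calls. In the list of 12 EMT factors and cadherins 3 fell in both blocks (25%), and calls went from 4 to 2 without p53 library 3. The mesenchymal factors Twist2 and Prrx1 fell from 22.1 and 458 CPM to 5.85 and 146 CPM in libraries 1 to 3 and 4.95 and 231 CPM in libraries 4 to 6. Runx2, a factor of bone formation, rose from 69.3 to 104 and 102 CPM (limma adjusted p = 2.65e-05).

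Among matrix genes, the basement membrane collagens Col4a1 and Col4a2 fell in both blocks. Col4a1 read 933 ± 50.7 CPM in p53 (SD, n = 3), 348 ± 17.1 in libraries 1 to 3 and 375 ± 27.7 in libraries 4 to 6 (difference -1.37, SE 0.10, limma adjusted p = 5.52e-08). Col4a2 read 613, 205 and 273 CPM. Decorin, Dcn, fell from 59.1 to 7.26 and 15.4 CPM, and Timp1, an inhibitor of metalloproteinases, from 681 to 102 and 287 CPM. Col1a1, the main fibrillar collagen, read 2913 CPM in p53, 26.2 CPM in libraries 1 to 3 and 9256 CPM in libraries 4 to 6. Over the 24 tested collagens 5 fell in both blocks, 20.8% against 12.3% of all genes, and 16 lay on opposite sides of p53, 66.7% against 19.5%.

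The genes with the widest opposite differences included oral epithelial factors. Pitx1, a factor of the oral ectoderm, read 7.76 CPM in p53, 173 in libraries 1 to 3 and 0 reads in libraries 4 to 6, and Pax9 read 0.691, 51.7 and 0 CPM. In the other direction Lama1, a laminin chain, read 6.43, 0.157 and 78.8 CPM, and the smooth muscle actin Actg2 read 30.3, 0.350 and 294 CPM. The mean over all 6 libraries did not pass the test for these genes, with adjusted p between 0.624 and 0.807 in limma.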

How the data were processed

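RNA was measured in 18 mouse libraries, prepared with a TruSeq Stranded mRNA LT kit per the labels' protocols. The submitters' processing notes name bcl2fastq 1.8.4, Trimmomatic, featureCounts and the build mm10. Aligner, annotation and strand setting: not given in the sources used here. Log2 values for 26143 genes were deposited by the authors. Each value is the log2 ratio of a gene's reads, with 1 added, to a scaled total of its library, and 100% of values gave back whole reads within 0.001. CPM here is reads over that total, which is 0.939 to 1.12 times the sum of reads.

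The test took genes with 0.635 CPM or more in at least 3 libraries (10 reads at the median depth) and 15 reads over all libraries. limma 3.58.1 in R 4.3.3 with the mean-variance trend fitted 1 mean per group over all 18 libraries (14 residual degrees of freedom), and p-values were adjusted by Benjamini-Hochberg over 15235 genes at 0.05. limma was tested on simulated data with no blocks within groups, so that test does not cover the spread between blocks seen here. Column names identified the libraries, grouped by their labels, and the 9 pairs of libraries within p53 or within 1 block all differed by more than counting error.

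The comparison, the 53 gene lists and the naming rule were chosen with earlier results of these data known. The rule names Trp53, Pik3ca, Mdm2 and Cdkn1a, up to 12 genes per direction by the smaller block difference with at least 5 CPM on the higher side, up to 4 per list, and up to 6 per direction with opposite blocks. It skips, by symbol, antigen receptor genes, pseudogenes, predicted genes and RIKEN genes, and so kept Rps4l. Bax, Zmat3, Akt1, Ifit3, Col1a1 and the other list members named outside the rule were chosen after their values were seen. No set test was made. Gene positions are from GENCODE M21. Alternatives were the 9 libraries alone, median centring, CPM plus 1, 2 other filters, robust variance, a replicate block, block means, each block alone and each library left out. Some genes of the lists are not reported here.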

Additional observations from a re-analysis of the deposited data

Results flagged for a closer look

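In the 6 double mutant libraries, 153 named genes were checked for a single library far from the other 5, and 6 genes had one. Chance gives about 1 in 20 groups of values with a common spread, and 6 of 153 is below that rate. The 6 libraries form 2 blocks, so the rate is only a rough guide. 4 of the 6 genes are at the limit of detection, where 1 library held 1 or 2 reads and the other 5 held 0, which the check always flags. Lhx8 and Rps4l each stood at 0.0617 CPM in E20/p53 library 1, Tbx4 at 0.119 CPM in library 4, and Spock1 at 0.0658 CPM in library 6. Col4a6, a basement membrane collagen, stood at 1.05 CPM in library 6 against 0.617 to 0.774 CPM in the others, all below the p53 mean of 5.89 CPM. Gli3 stood at 128 CPM in library 4 against 110 to 117 CPM in the others, all above the p53 mean of 80.7 CPM.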

How the results depend on the processing

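With libraries averaged to 6 block means, 0 genes were higher and 0 lower, and 0 moved the same way in either direction, with 422 at an unadjusted p under 0.05 in limma, since 3 libraries then count as 1. With double mutant libraries 1 to 3 alone, 4766 were higher and 4968 lower. Leaving out 1 library gave 1111 to 2358 higher and 1214 to 2333 lower, and 1105 to 1978 higher and 1209 to 2082 lower the same way. The replicate numbers did not pair the libraries (r of same-numbered deviations 0.02, 0.05 and -0.03). A replicate block gave 3253 higher and 3157 lower. With libraries 4 to 6 alone 2734 were higher and 2475 lower, and 2711 and 2459 were higher and lower with no overlap. Higher calls, fewer than lower ones in the fit reported, outnumbered them there, under the stricter filter (1843 and 1667), with the replicate block, and without E20/p53 library 4, 5 or 6. The remaining settings kept the counts within 1.5 times, and none reversed the direction of any of the 141 named genes. Of those genes 40 lost the call under at least 1 setting other than block means. Genes near 0 reads limit the size of a fall: Thy1 and Oas2 have no exact fold in either block, and Ptgis has none in libraries 1 to 3.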

Other observations

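Gene families outside the lists were looked at after the values had been seen, so they are descriptions. Of 19 tested interferon-inducible GTPases, which act on vacuoles that hold pathogens, 16 were lower in both blocks and 0 higher. Over all genes 12.3% were lower and 11.5% higher, and the median difference of the family was -2.35. Gvin1 read 41.4 ± 6.83 CPM in p53 (SD, n = 3), 1.16 ± 0.546 in double mutant libraries 1 to 3 and 1.10 ± 0.336 in libraries 4 to 6, and Irgm2 read 42.8, 7.93 and 7.45 CPM. Members of this family are close in sequence, so reads could be split between them. Among 51 tested TRIM genes, 14 were lower and 4 higher in both blocks, with a median difference of -0.10.

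Of 11 tested genes for the synthesis of prostanoids and leukotrienes 5 were lower in both blocks and 0 higher, against 12.3% and 11.5% of all genes. Besides Ptgis, the cyclooxygenase Ptgs1 read 316 ± 16.0 CPM in p53 (SD, n = 3), 117 ± 3.20 in libraries 1 to 3 and 135 ± 0.803 in libraries 4 to 6, and the prostaglandin E synthase Ptges read 31.1, 13.04 and 8.95 CPM. The protease Ctsk, known from osteoclasts, read 28.4, 0.870 and 0.930 CPM, and S1pr3, a receptor for sphingosine 1-phosphate, 41.9, 1.63 and 1.47 CPM.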
